A study of Mus musculus with 2 samples.

Results

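The genes of glycolysis and of the response to low oxygen described here are 32 of the 22597 genes measured, and they were chosen by name. Of the 32, 5 carry glucose into the cell or phosphorylate it, 8 catalyse or control the hexose steps, and 6 catalyse the triose steps to pyruvate. A further 3 decide what becomes of pyruvate, 9 belong to the hypoxia response, and the last is the cytokine gene Mif. All 32 were found in the matrix by symbol. Aldoa had 2 rows, of which the second held 1 UMI and was not used.

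The cells were lung monocytes and macrophages of donor origin in mice rebuilt with donor bone marrow after irradiation. The hosts were CD45.1+CD45.2+ IM-DTR mice, in which diphtheria toxin kills interstitial macrophages, and both groups received a dose of 50 ng 10 days ahead of sacrifice. Donor marrow (CD45.1-CD45.2+) was Tgfbr2 fl/fl for the control pool, hashtag B0301, and LyzM-Cre Tgfbr2 fl/fl for the Tgfbr2-KO pool, hashtag B0303. Both groups therefore carry the floxed alleles, and only the second carries the Cre, which is driven from the lysozyme M locus and is active in monocytes, macrophages and neutrophils. Cells were sorted as CD45.1-CD45.2+, Ly6G-, SiglecF-, CD11b+, CD64+ with low side scatter. The series' text speaks of 5 pooled chimeric mice without saying whether that is per genotype, and the sources used here give neither age nor strain background. Mice within a pool cannot be told apart. There is thus 1 pool per genotype and no replicate, no test was made, and every interval below covers counting error only.

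Glycolysis splits glucose into pyruvate and yields energy without oxygen. Under low oxygen the transcription factor HIF1 accumulates, because the prolyl hydroxylases encoded by the Egln genes no longer mark its alpha subunit, the product of Hif1a, for destruction. HIF1 raises the genes of most glycolytic enzymes, and it also accumulates in macrophages activated by microbial products or interferon while oxygen is present. Such macrophages take up more glucose, release lactate and make nitric oxide through Nos2.

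HIF1 binds the short letters ACGTG or GCGTG. These were sought on both strands in the 250 bases before each start site in RefSeq (GRCm38.p6), where CACGTG counts as 2 matches because it reads as ACGTG on either strand. Promoters were matched for 29 of the 32 members, and 26 of the 29 (89.7%) held at least 1 match in at least 1 of their start sites. By promoter, 34 of 42 member promoters held one, against 38.6% of all 32851 promoters of the same length. Member promoters were also richer in G and C, with a median of 61% against 52.4%. A match is a description of letters, binding was not measured, and the part of base composition was not tested. The promoters of 5 members are shown, picked after their values below were seen. Pgk1, Ldha and Hif1a were higher in cells with many interferon-induced transcripts. Bnip3, P4ha1 and also Hif1a were more than 2-fold higher in those of them that also held Nos2. Capitals mark the ACGTG or GCGTG matches, and each run of 250 bases ends just before the start site. They lie at chrX:106186850-106187099 (plus strand) for Pgk1, chr7:46845554-46845803 (plus) for the upstream start of Ldha, chr12:73907617-73907866 (plus) for Hif1a, chr10:59323046-59323295 (plus) for P4ha1 and chr7:138909507-138909756 (minus) for Bnip3.
Pgk1: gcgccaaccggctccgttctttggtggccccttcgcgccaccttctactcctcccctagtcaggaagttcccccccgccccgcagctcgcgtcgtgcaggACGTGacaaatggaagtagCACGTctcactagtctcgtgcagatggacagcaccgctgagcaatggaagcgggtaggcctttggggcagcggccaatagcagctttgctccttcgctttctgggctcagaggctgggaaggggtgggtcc
Ldha: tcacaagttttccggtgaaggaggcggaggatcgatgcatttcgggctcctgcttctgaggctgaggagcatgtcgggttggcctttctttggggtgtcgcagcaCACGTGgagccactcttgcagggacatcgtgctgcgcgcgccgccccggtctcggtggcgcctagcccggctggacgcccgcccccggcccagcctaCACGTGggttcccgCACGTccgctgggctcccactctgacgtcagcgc
Hif1a: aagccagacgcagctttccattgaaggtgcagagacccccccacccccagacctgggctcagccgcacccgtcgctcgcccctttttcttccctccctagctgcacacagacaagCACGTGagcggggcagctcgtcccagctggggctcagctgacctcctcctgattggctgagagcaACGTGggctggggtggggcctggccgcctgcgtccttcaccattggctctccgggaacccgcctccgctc
P4ha1: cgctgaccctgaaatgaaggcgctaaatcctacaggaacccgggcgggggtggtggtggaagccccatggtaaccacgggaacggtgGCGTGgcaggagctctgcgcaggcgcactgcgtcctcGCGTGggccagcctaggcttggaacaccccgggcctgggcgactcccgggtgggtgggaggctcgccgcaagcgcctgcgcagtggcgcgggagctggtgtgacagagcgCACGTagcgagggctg
Bnip3: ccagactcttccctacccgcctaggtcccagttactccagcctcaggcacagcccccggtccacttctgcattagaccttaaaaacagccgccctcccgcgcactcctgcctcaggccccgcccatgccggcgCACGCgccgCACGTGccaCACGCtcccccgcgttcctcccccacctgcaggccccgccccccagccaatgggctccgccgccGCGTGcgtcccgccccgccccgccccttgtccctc
The 5 windows hold 2 matches for Pgk1, 5 for Ldha, 3 for Hif1a, 3 for P4ha1 and 5 for Bnip3. The downstream start of Ldha, not shown, held 1. Gpi1, Tpi1 and Mif held no match. Of these, Tpi1 and Mif were called higher in cells with many interferon-induced transcripts, and Gpi1 was not. The windows shown thus do not tell whether the letters go with the transcript differences. The RefSeq table gave no promoter for Bnip3l, Ndrg1 and Slc2a3.

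The cells that passed the filters were 1896 from the control pool, with 16298452 UMIs in total, and 2674 from the Tgfbr2-KO pool, with 30729204. Median depth was 7785 UMIs per control cell and 10277.5 per Tgfbr2-KO cell, and median mitochondrial shares were 2.76% and 2.25%. A level below is a gene's UMIs per 1000000 gene UMIs of the group (UPM). Macrophage markers fitted the sort: Cd68 was at 518 and 440 UPM, Adgre1 at 448 and 348, and Fcgr1, the gene for CD64, at 116 and 199. Tgfbr2 was at 215 UPM in control and 195 UPM in Tgfbr2-KO cells, and without the interferon-high cells defined below at 215 and 228 UPM, the other way round. This 3′ count does not show whether the floxed exons were removed. Cells with at least 15 UMIs of Ly6a, Ly6i, Gbp2 and Iigp1 together, genes that interferon induces, are called interferon-high. They were 675 of 2674 Tgfbr2-KO cells, or 25.2% (exact 95% binomial interval 23.6 to 26.9), and 3 of 1896 control cells, or 0.158% (0.0326 to 0.462).

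Over all cells, many member transcripts were higher in the Tgfbr2-KO pool, among them Hk3, Hif1a, Mif, all 6 enzymes of the triose steps and Ldha. The 32 members summed to 2533 UPM (exact 95% Poisson interval 2509 to 2557) in control cells and 3841 UPM (3819 to 3863) in Tgfbr2-KO cells, a ratio of 1.52 (exact 95% interval 1.5 to 1.53). Genes counted were those with 100 UMIs or more over both groups and a mean level of 10 UPM or more, which 24 of 32 members met, and a gene was called higher or lower from a ratio of 1.5 on. Of the 24, 13 were called higher in the Tgfbr2-KO pool and 0 lower, where 9.53% and 6.26% of all 7168 counted genes were. The median log2 ratio of the 24 was 0.64, beside 0.08 for all counted genes.

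In the triose steps 6 of 6 members were called higher, and their sum was 1.77-fold (1.74 to 1.80). Gapdh, which oxidises glyceraldehyde 3-phosphate, was at 573 UPM in control and 989 UPM in Tgfbr2-KO cells, 1.72-fold (1.68 to 1.77). Pgk1, which makes the first ATP of the pathway, was at 68.2 and 136 UPM, 1.99-fold (1.86 to 2.13). Pgam1, the mutase that follows it, was at 82.0 and 160 UPM, 1.95-fold (1.84 to 2.07). Tpi1, Eno1 and Pkm, for the isomerase, enolase and pyruvate kinase, were 1.71-, 1.59- and 1.84-fold higher. Of the genes for the fate of pyruvate, lactate dehydrogenase Ldha went from 118 to 204 UPM (1.73-fold, 1.64 to 1.82). The lactate exporter Slc16a3 went from 22.3 to 39.4 UPM (1.76-fold, 1.57 to 1.99). The pools thus differed in the same direction from the aldolase product to lactate export.

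The genes for glucose entry and for the hexose steps were uneven. Hk3, a hexokinase of myeloid cells, was at 34.4 UPM in control and 74.7 UPM in Tgfbr2-KO cells, 2.17-fold (1.98 to 2.38). Hk1 and Hk2, the other 2 hexokinases, were at 32.2 and 137 UPM in control cells and at 27.2 and 128 UPM in Tgfbr2-KO cells. The glucose transporter Slc2a1 was level, at 45.2 and 44.3 UPM (0.98-fold, 0.90 to 1.07). Aldoa, the aldolase, was 1.65-fold higher (209 to 345 UPM) and the phosphofructokinase Pfkp 1.52-fold higher (102 to 155 UPM). Pfkl, at 12.6 and 17.7 UPM, and Gpi1, at 186 and 196 UPM, stayed within 1.5-fold. Pfkfb3 and Pfkfb4, whose enzymes make or remove the activator fructose 2,6-bisphosphate, pointed the other way. Pfkfb3 was at 98.0 UPM in control and 67.1 UPM in Tgfbr2-KO cells, 1.46-fold lower (1.37 to 1.56). Pfkfb4 was at 24.1 and 19.6 UPM, though thinned to equal depth it was slightly higher in Tgfbr2-KO cells.

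In the hypoxia response Hif1a was at 91.6 UPM in control and 189 UPM in Tgfbr2-KO cells, 2.06-fold (1.95 to 2.18). Genes that low oxygen induces were uneven. P4ha1, a collagen prolyl hydroxylase, was at 78.9 and 55.7 UPM, 1.42-fold lower (1.32 to 1.52). Bnip3l, a mitophagy receptor, was at 76.6 and 69.1 UPM, and Egln1, the prolyl hydroxylase that marks HIF1 alpha, at 21.4 and 23.4 UPM. Ndrg1, a stress gene that HIF1 raises, was at 46.3 and 62.9 UPM, 1.36-fold (1.25 to 1.48). Mif was at 98.7 and 202 UPM, 2.05-fold (1.94 to 2.16).

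**Figure D1:**
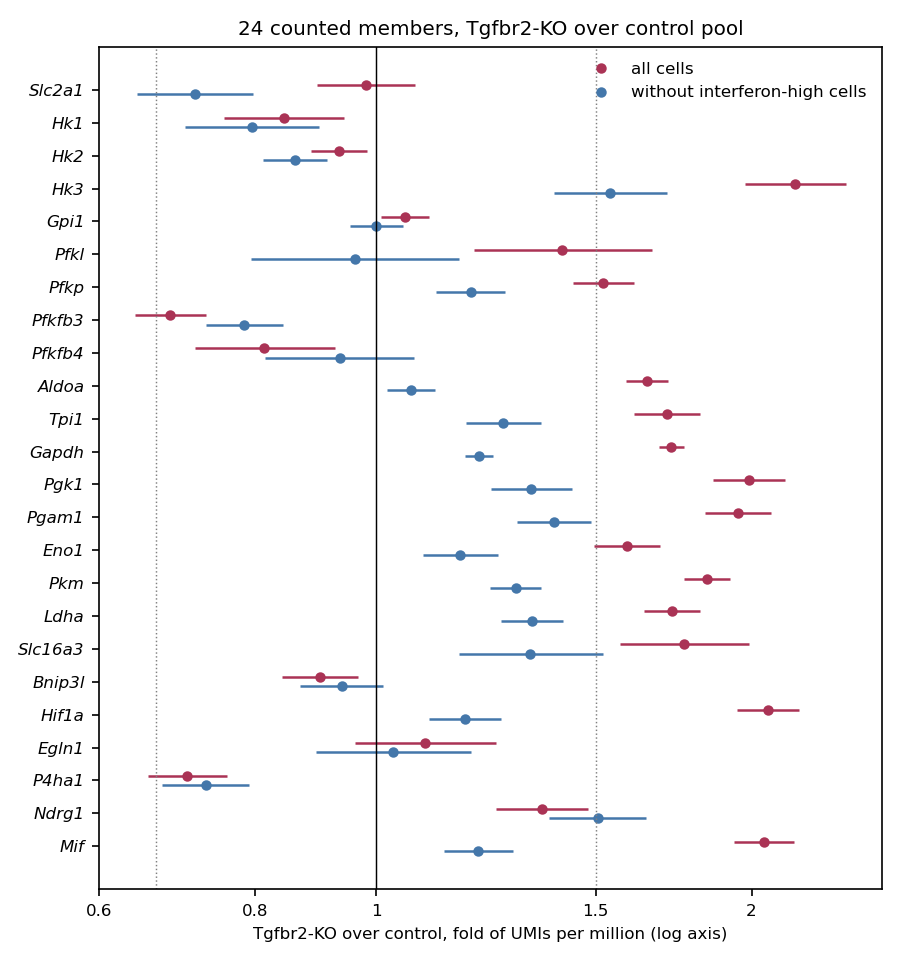
Ratio of levels in UPM, Tgfbr2-KO over control (log axis), for the 24 counted members in pathway order. Red points are all cells and blue points cells that are not interferon-high, lines are exact 95% counting intervals, and dotted lines mark 1.5-fold in either direction. Without interferon-high cells 2 points lie past the dotted line, Hk3 and Ndrg1.

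Leaving out the interferon-high cells removed most of the difference, as the plot of members shows. The sum was 2533 UPM in the other 1893 control cells and 2870 UPM in the other 1999 Tgfbr2-KO cells, a ratio of 1.13 (1.12 to 1.15). Of 24 counted members, 2 were called higher and 0 called lower, where 5.51% and 3.54% of 7148 counted genes were. The median log2 ratio was 0.23, beside 0.07 for all counted genes. The 2 were Hk3, at 34.2 and 52.7 UPM (1.54-fold, 1.39 to 1.71), and Ndrg1, at 46.4 and 69.9 UPM (1.51-fold, 1.38 to 1.65). Both intervals include 1.5, and the count ran from 0 to 5 under the settings given in the closing section.

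Among these cells the triose enzymes kept a smaller excess, from 1.17-fold for Eno1 to 1.39-fold for Pgam1 (1.30 to 1.49). Ldha was at 118 and 158 UPM (1.33-fold, 1.26 to 1.41), Hif1a at 91.4 and 108 UPM (1.18-fold, 1.10 to 1.26, but just below control with the gate at 3 UMIs) and Mif at 98.6 and 119 UPM (1.21-fold, 1.13 to 1.29). The transcript of the glucose transporter went the other way. Slc2a1 was at 45.1 UPM in control and 32.3 UPM in Tgfbr2-KO cells, 1.4-fold lower (1.25 to 1.55). P4ha1 was 1.37-fold lower (1.26 to 1.48), Pfkfb3 1.28-fold lower (1.19 to 1.37), Hk1 1.26-fold lower (1.11 to 1.42) and Hk2 1.16-fold lower (1.10 to 1.23). The 4 genes of glucose entry other than Slc2a3 therefore split, with Hk3 higher and Slc2a1, Hk1 and Hk2 lower. Markers of other cells also differed between these cells. Neutrophil markers summed to 55.6 UPM in control and 180 UPM in Tgfbr2-KO cells, and structural markers to 38.6 and 117 UPM, with Sftpc at 15.4 and 92.0 UPM. All 6 genes of either list were detected in both pools, and their part in the differences was not tested.

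Interferon-high cells of the Tgfbr2-KO pool were compared with the other cells of the same pool, which shared its hashtag and library. Which mice of the pool either group came from is not known. The members summed to 5607 UPM (5563 to 5652) in interferon-high cells and 2870 UPM (2846 to 2893) in the others, 1.95-fold (1.93 to 1.98). Of 25 counted members, 15 were called higher and 2 called lower, where 10.2% and 12.5% of 7205 counted genes were. Their median log2 ratio was 0.94, beside 0.03 for all counted genes. Interferon-high cells had more UMIs, a median of 14951 against 8763, and the gate is a raw count, so deeper cells pass it more easily. With every cell thinned to 3000 UMIs the median cell held 14 member UMIs in the 673 interferon-high cells deep enough and 7 in the 1918 other Tgfbr2-KO cells. It also held 7 in the 1813 other control cells, while 2, 81 and 80 shallower cells were left out. Macrophage markers summed to 1290 UPM in interferon-high cells and 1895 UPM in the others, neutrophil markers to 65.3 and 180 UPM, dendritic markers to 59.8 and 67.0 UPM and structural markers to 32.8 and 117 UPM.

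Hif1a differed most among the counted members, at 108 UPM in the other cells and 336 UPM in interferon-high cells, 3.12-fold (2.96 to 3.29). Mif followed, at 119 and 353 UPM (2.97-fold, 2.82 to 3.12), then Aldoa at 223 and 567 UPM (2.54-fold, 2.44 to 2.64) and Pgk1 at 90.9 and 218 UPM (2.39-fold, 2.25 to 2.55). Gapdh was at 694 and 1525 UPM (2.20-fold, 2.15 to 2.25) and Pkm at 226 and 496 UPM (2.19-fold, 2.11 to 2.28). All 6 triose enzymes lay between 1.99- and 2.39-fold. The liver-type phosphofructokinase Pfkl was at 12 and 28.2 UPM (2.35-fold, 1.98 to 2.79), and Hk3 was 2.17-fold higher (2.0 to 2.36). Slc2a1 was at 32.3 UPM in the other cells and 66.1 UPM in interferon-high cells, 2.04-fold (1.84 to 2.28). The glucose transporter was thus lower than in control cells outside the interferon-high group and higher than in control cells within it, and over all cells its levels came out even.

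Of the 6 counted members of the hypoxia response, Hif1a was called higher in this comparison and the other 5 stayed within 1.5-fold. P4ha1 was at 57.6 and 52.1 UPM, Bnip3l at 72.1 and 63.7 UPM, and Egln1 at 22.1 and 25.9 UPM. Bnip3, the other mitophagy receptor, was at 10.3 and 14.2 UPM (1.38-fold, 1.11 to 1.70). Ndrg1 was 1.39-fold lower (1.26 to 1.54), from 69.9 to 50.3 UPM. Pfkfb3 was 1.56-fold lower (1.41 to 1.72), from 76.8 to 49.3 UPM, and Pfkfb4 1.59-fold lower (1.32 to 1.92), from 22.6 to 14.2 UPM. The second glucose transporter, Slc2a3, had too few UMIs to be counted, at 8.52 UPM in the other cells and 2.20 UPM in interferon-high cells.

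**Figure D2:**
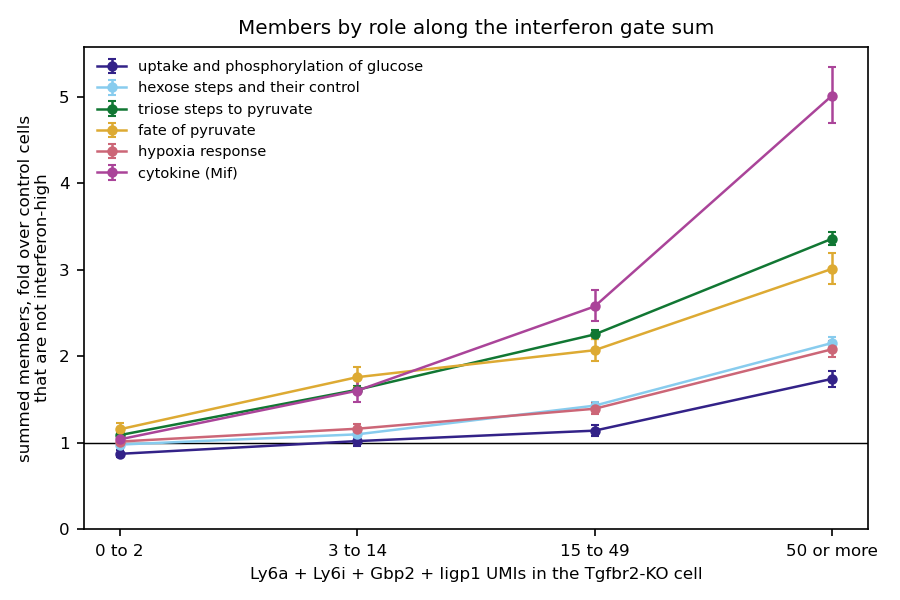
Summed members of each role in Tgfbr2-KO cells binned by their Ly6a, Ly6i, Gbp2 and Iigp1 UMIs, as fold over control cells that are not interferon-high (linear axis from 0). Bars are exact 95% counting intervals, and the bins hold 1535, 464, 416 and 259 cells. The triose steps go from 1.09-fold in the first bin to 3.36-fold in the last, and Mif from 1.04- to 5.02-fold. The hypoxia response sum includes Hif1a, and in the last bin the sum is 2.08-fold and Hif1a 5.01-fold. Bnip3 and Egln1 are 2.80- and 1.44-fold there, and P4ha1, Bnip3l and Ndrg1 0.74-, 0.84- and 0.87-fold.

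The members stepped up along the gate sum, and the lowest bin lay close to the control pool. The sum was 2609 UPM (2582 to 2636) in Tgfbr2-KO cells with 0 to 2 gate UMIs, against 2533 UPM in control cells that are not interferon-high, 1.03-fold (1.02 to 1.04). It was 3474 UPM at 3 to 14 gate UMIs, 4618 UPM at 15 to 49 and 7019 UPM at 50 or more, the last 2.77-fold over control (2.73 to 2.81). Hif1a was at 88.5, 152, 251 and 458 UPM over the 4 bins, against 91.4 UPM in control cells. Aldoa was at 200, 278, 438 and 751 UPM, against 209 UPM. Slc2a1 started below control, at 29.5 UPM against 45.1, and reached 38.8, 50.9 and 87.7 UPM. Pfkfb3 stepped down, from 82.9 to 62.9, 52.8 and 44.3 UPM, and Ndrg1 from 73.5 to 61.5, 57.1 and 40.5 UPM. Bnip3 stayed between 9.83 and 10.7 UPM in the first 3 bins and was at 20.5 UPM in the last. P4ha1 had no such order, at 59.4, 53.5, 47.8 and 58.3 UPM, and lay below the control level of 78.9 UPM in every bin. Median depth rose over the bins as well, from 8202 UMIs in the first to 12314.5, 14343.5 and 16001.

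**Figure D3:**
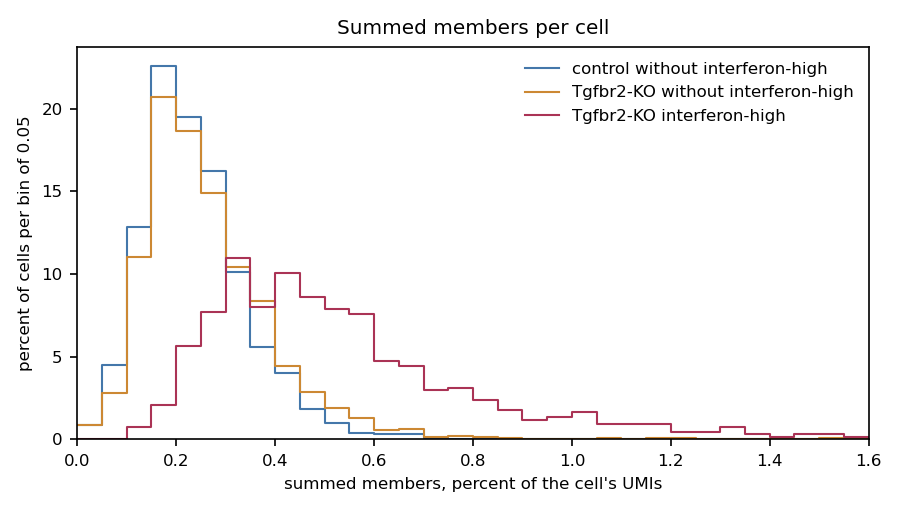
Share of each cell's UMIs taken by the 32 members, as percent of cells per bin of 0.05 percentage points, in 1893 control and 1999 Tgfbr2-KO cells that are not interferon-high and in 675 interferon-high Tgfbr2-KO cells. The first 2 curves nearly coincide, with medians of 0.221% and 0.237%, and the third is shifted and broader, with a median of 0.483%. The axis ends at 1.6%.

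Per cell the members took a median of 0.221% of UMIs in control cells that are not interferon-high, with quartiles of 0.167% and 0.296%. In the other Tgfbr2-KO cells the median was 0.237% (0.174% to 0.329%), and in interferon-high cells it was 0.483% (0.341% to 0.662%). The upper quartile of control cells thus lay below the lower quartile of interferon-high cells.

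Cells were gated into 8 states by marker UMIs, and 4 of these were compared. The others had under 50 cells in a pool or, for 1 low-C1q state, median depths of 2972 and 11401.5 UMIs in control and Tgfbr2-KO cells. The sum of that state is given in the closing section. The Ly6c2-type state was kept, though its median depths also differed, at 6729 and 11169 UMIs. Low C1q with Ly6c2-type genes, among them Ly6c2 and Ccr2, marks cells of the classical monocyte kind. The 3 other states are C1q-positive: a group with Folr2, Lyve1 or Cd163, a Mrc1-high state and a Mrc1-low state. In control cells that are not interferon-high the sum was 3302 UPM in the Ly6c2-type state and 3535 UPM in the Fn1-high state, and 2201, 2149 and 2441 UPM in the Folr2-group, Mrc1-high and Mrc1-low states. The intervals of the Folr2-group (2144 to 2260) and the Mrc1-high state (2104 to 2196) overlapped. Hif1a was at 191 UPM in the Ly6c2-type state and 61.1 UPM in the Mrc1-low state, and Pfkfb3 was highest in the Folr2-group among the C1q-positive states, at 183 UPM against 112 and 63.8 UPM in the Mrc1-high and Mrc1-low states.

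**Figure D4:**
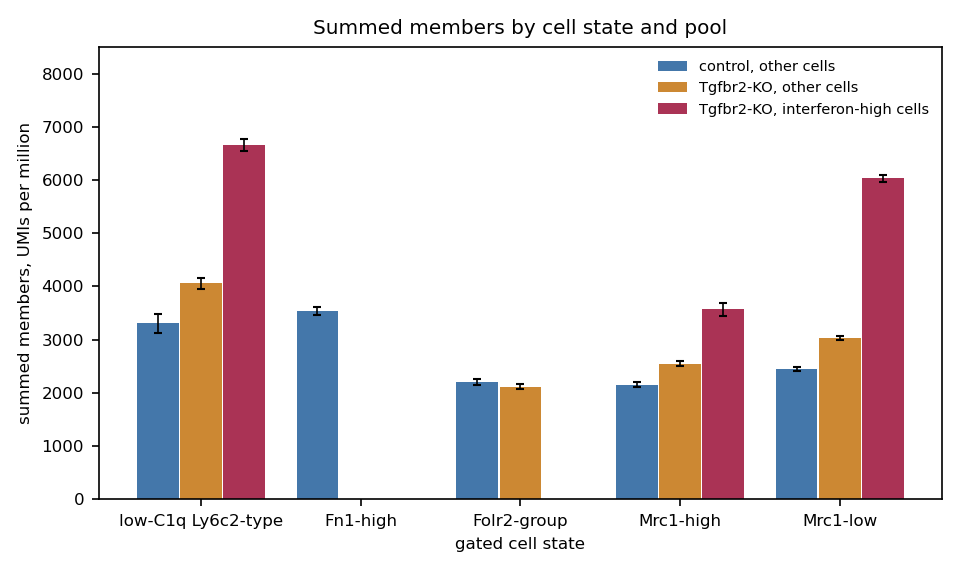
Summed members (UPM, axis from 0) by gated state in control cells and Tgfbr2-KO cells that are not interferon-high and in interferon-high Tgfbr2-KO cells, with exact 95% Poisson intervals. Groups under 50 cells are not drawn. Interferon-high cells are highest in each of the 3 states with at least 50 of them, with 6661, 3565 and 6028 UPM.

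Without interferon-high cells, the pools differed in 3 of the 4 states and barely in the Folr2-group. In the Ly6c2-type state the sum was 3302 UPM in 58 control cells and 4058 UPM in 146 Tgfbr2-KO cells, 1.23-fold (1.16 to 1.31). Of 19 counted members 5 were called higher and 1 called lower, where 10.6% and 14.6% of counted genes were. They were Bnip3l, Ldha, Mif, Pgam1 and Tpi1, with Mif at 65.3 and 148 UPM (2.27-fold, 1.5 to 3.56), and, lower, Pfkfb3 at 133 and 58.3 UPM (2.29-fold, 1.59 to 3.27). In the Folr2-group the sum was 2201 and 2109 UPM, 0.96-fold (0.93 to 0.99). There 1 of 22 counted members was called higher and 3 called lower, where 5.17% and 5.44% of counted genes were. Ndrg1 was higher, at 12.4 and 28.3 UPM. Slc2a1, at 30 and 14.9 UPM (2.01-fold lower, 1.4 to 2.89), Hk1, at 58.0 and 35.5 UPM, and P4ha1, at 92.8 and 55.2 UPM, were lower.

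In the Mrc1-high state the sum was 2149 and 2543 UPM, 1.18-fold (1.15 to 1.22). There 4 of 24 counted members were called higher and 0 called lower, where 7.81% and 3.96% of counted genes were. Ndrg1 led them, at 35.5 and 82.9 UPM (2.34-fold, 1.92 to 2.86), with Pgam1 at 57.8 and 103 UPM, Hk3 at 34.4 and 56.5 UPM and Pfkp at 81.7 and 123 UPM. In the Mrc1-low state the sum was 2441 and 3029 UPM, 1.24-fold (1.22 to 1.27). There 2 of 24 counted members were called higher, Hk3 at 23.0 and 37.6 UPM and Ldha at 113 and 171 UPM, and 0 called lower, where 6.62% and 2.83% of counted genes were. Slc2a1 and P4ha1 were below control in each of the 4 states, by 1.09- to 2.01-fold and by 1.22- to 1.68-fold, though in the Ly6c2-type state both intervals included a ratio of 1. Hk1 and Hk2 were not below control in the Mrc1-low state, where 3 of 4 counted genes of glucose entry, all but Slc2a1, were above it.

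Interferon-high cells were above the other Tgfbr2-KO cells within each of the 3 states with at least 50 of both. They made up 51.0% of the Tgfbr2-KO cells in the Ly6c2-type state, 33.7% in the Mrc1-low state and 9.82% in the Mrc1-high state. The sum went from 4058 to 6661 UPM in the Ly6c2-type state, 1.64-fold (1.59 to 1.69). There 12 of 21 counted members were called higher and 3 called lower, where 9.69% and 14.1% of counted genes were. The 3 were Bnip3l, Ndrg1 and Pfkfb3, and Slc16a3 was at 132 and 99.3 UPM. In the Mrc1-high state the sum went from 2543 to 3565 UPM, 1.4-fold (1.35 to 1.46). There 7 of 22 were higher and 2, Ndrg1 and P4ha1, lower, where 9.38% and 9.68% of counted genes were. In the Mrc1-low state it went from 3029 to 6028 UPM, 1.99-fold (1.96 to 2.02). There 15 of 25 were higher and 1, Pfkfb4, lower, where 11.4% and 10.1% of counted genes were. Hif1a went from 212 to 447 UPM, from 98.8 to 220 UPM and from 89.2 to 354 UPM in the 3 states. The members higher in all 3 states were Aldoa, Gapdh, Hif1a, Hk3, Mif and Pgk1.

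Within interferon-high Tgfbr2-KO cells, those with Nos2 stood higher again, and the hypoxia genes were higher as well. Nos2, inducible nitric oxide synthase, had at least 2 UMIs in 87 of the 675 cells, or 12.9% (10.5 to 15.7). It reached this in 11 of the 1999 other Tgfbr2-KO cells and in 0 control cells. Of the 87 cells, 56 were in the Mrc1-low and 19 in the Ly6c2-type state. The members summed to 8909 UPM (8761 to 9059) in these 87 cells and 5063 UPM (5018 to 5109) in the 588 without, 1.76-fold (1.73 to 1.79). Of 25 counted members 17 were called higher and 2 called lower, where 7.27% and 8.48% of 7002 counted genes were. Their median log2 ratio was 0.85, beside -0.04 for all counted genes.

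In this split 4 of 6 counted hypoxia response genes were called higher and 1, Ndrg1, lower. Bnip3 was at 11.0 UPM without and 33.7 UPM with Nos2, 3.06-fold (2.15 to 4.32). P4ha1 was at 44.2 and 99.9 UPM (2.26-fold, 1.86 to 2.72), above the 78.9 UPM of control cells, and Egln1 at 23.3 and 41.5 UPM (1.78-fold, 1.33 to 2.36). Hif1a was at 275 and 705 UPM (2.56-fold, 2.38 to 2.75). Of the genes for glucose entry, 4 of 4 counted members were called higher. Slc2a1 was at 54.5 and 136 UPM (2.5-fold, 2.12 to 2.94). Hk3 was at 99.5 and 206 UPM, Hk2 at 129 and 247 UPM and Hk1 at 27.5 and 45.4 UPM. Mif was at 297 and 695 UPM (2.34-fold, 2.18 to 2.52) and Aldoa at 493 and 1014 UPM (2.06-fold, 1.94 to 2.18). Ndrg1 was 1.51-fold lower (1.14 to 2.04), and Pfkfb4 1.80-fold lower (1.02 to 3.46) on 13 UMIs. The 2 groups differed less in depth, with medians of 16595 and 14712.5 UMIs, and ribosomal genes took 11.4% of UMIs with Nos2 and 14.4% without. Interferon-high cells without Nos2 summed to 2.0-fold the level of control cells (1.97 to 2.03).

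**Figure D5:**
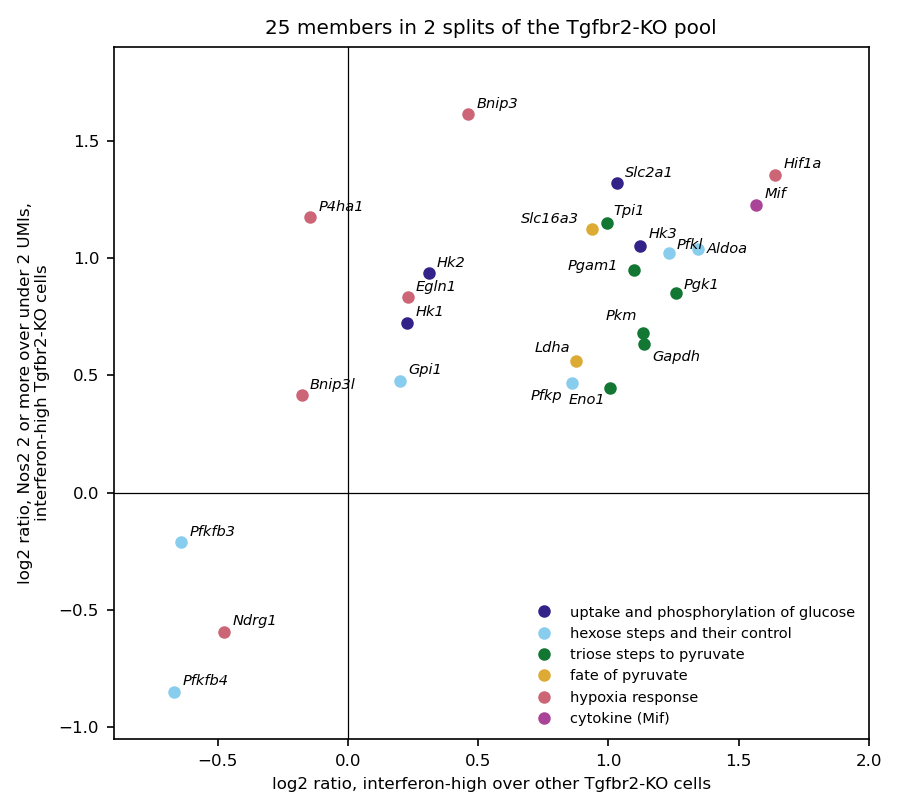
Log2 ratios of the 25 members counted in both splits of the Tgfbr2-KO pool, interferon-high over other cells (x) and Nos2 with at least 2 over under 2 UMIs among interferon-high cells (y), coloured by role. Both splits share the interferon-high cells. Hif1a and Mif lie at the upper right, while Bnip3, P4ha1, Hk2 and Egln1 lie high on y and under 0.5 on x.

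The 8 members below the level for counting over all cells were Slc2a3, Pfkm, Aldoc, Pdk1, Bnip3, Egln3, Ddit4 and Adm. Slc2a3 was at 10.5 UPM in control and 6.28 UPM in Tgfbr2-KO cells, 1.67-fold lower (1.35 to 2.06), and Bnip3 at 7.36 and 11.7 UPM, 1.59-fold higher (1.29 to 1.97). The kinase gene Pdk1 was at 3.01 and 5.24 UPM, and Ddit4, an inhibitor of mTOR signalling, at 1.47 and 2.51 UPM. Pfkm had 38 and 65 UMIs, Aldoc 65 and 147, and Adm, for adrenomedullin, 23 and 27. Egln3 had 1 UMI in control and 13 in Tgfbr2-KO cells, so its ratio of 6.90 has an interval from 1.04 to 293. Adm, Egln3 and Ddit4 were thus rare in both pools. Other genes of the hypoxia response, namely Hif1a, P4ha1, Bnip3l, Egln1 and Ndrg1, were counted, with the levels given above.

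Genes around the pathway had lower median ratios than the members. These lists were chosen with results of these data known. The counts given first are over all cells, where 9.53% of counted genes were called higher and 6.26% lower. Of 7 counted among 28 other isozymes and gluconeogenic enzymes, 2 were called higher: Slc2a6, a lysosomal hexose transporter, at 10.2 and 22.9 UPM (2.24-fold, 1.89 to 2.67), and the kinase Pdk3, at 10.3 and 22.6 UPM (2.19-fold, 1.85 to 2.61). Of 17 counted among 31 other hypoxia genes, 3 were higher, Nos2, the HIF1 partner Arnt and the mitochondrial gene Higd1a, and 1, the heme oxygenase Hmox1, was lower. Nos2 was at 0.552 and 40.2 UPM, Higd1a was at 51.4 and 102 UPM (1.98-fold, 1.83 to 2.14), and Hmox1 at 401 and 261 UPM. In the pyruvate entry and TCA cycle list 6 of 23 counted genes were higher and 0 lower: Cs, Fh1, Idh3a, Sdhb, Sdhd and Suclg1, from 1.5- to 1.69-fold. In the pentose phosphate list it was 1 of 7, Rpe, and in glycogen metabolism 0 of 6. The median log2 ratios of the 5 lists, in the order given, were 0.25, -0.0004, 0.34, 0.37 and 0.16, beside 0.64 for the members and 0.08 for all counted genes. In interferon-high over other Tgfbr2-KO cells 10.2% of counted genes were called higher and 12.5% lower. There 8 of 24 counted TCA genes were higher and 0 lower. Of 18 other hypoxia genes 5 were higher, Nos2 among them, and 2 lower. Of 7 isozymes 2 were higher and 2 lower, of 7 pentose phosphate genes 1 and 0, and of 6 glycogen genes 1 and 1. The medians were then 0.42, 0.05, 0.35, 0.46 and -0.12, beside 0.94 for the members.

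Between cells with and without Nos2, where 7.27% of counted genes were called higher and 8.48% lower, the neighbouring lists differed among themselves. In the TCA list 0 of 24 counted genes were called higher and 1, Fh1, was lower, with a median log2 ratio of -0.08. Of 18 counted other hypoxia genes 6 were higher, with Nos2 itself, which defines the groups, among them, and the others were Bhlhe40, Ero1l, Hilpda, Hmox1 and Vegfa. In the same list 2 were lower, Cxcr4 and Egln2, and the median log2 ratio was 0.39. Gapdh, Aldoa, Pgk1, Ldha and other glycolysis genes have near-identical processed copies in the mouse genome. The sources used here do not say how reads shared with such copies were counted, so these levels are uncertain to that extent.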

How the data were processed

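The library was 1 10x 3′ library of both pools, told apart by hashtag. The deposited matrix holds UMI counts per gene and barcode, made with Cell Ranger 8.0.0 per the file headers and GRCm38 per the submitters' processing notes, which also name Seurat 5.1.0 for a step not described there. The deposited hashtag table gives assignment probabilities as fractions and, per the file headers, log10 hashtag counts after adding 1. Its single assignment took 4671 of 4887 called barcodes, and the 96 multiplets were left out. No doublet caller was run.

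Barcodes under 1000 UMIs, under 500 genes or above 10% mitochondrial UMIs were removed, which left 4570 cells. Counts were summed per group and divided by its total, without imputation. Cells were gated per 10000 UMIs (cycling and interferon genes on raw UMIs): C1q under 5 is low, then Fn1 from 10, the sum of Folr2, Lyve1 and Cd163 from 3, and Mrc1 from 5 is high. Intervals are exact at 95% (Poisson for levels, conditional binomial for ratios, Clopper-Pearson for shares) and cover counting error only. With 1 pool per genotype no test and no p-value was possible. The named genes are the 32 members and, of each related list, up to 6 counted genes called higher or lower in all cells; those named in the Nos2 split were chosen after their values were seen. The members, gates and lists were chosen with earlier results of these data known. Alternatives covered filters, thinning to 3000 UMIs, edgeR 4.0.16 trimmed-mean scaling, free RNA from 891940 barcodes with 1 to 50 UMIs, weighting, state mix and gates. Sums were tested on simulated data. Python 3.11.15, numpy 2.4.6, scipy 1.17.1, pandas 2.3.3 and R 4.3.3 were used. The calls fall at 1.5-fold.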

Additional observations from a re-analysis of the deposited data

How the results depend on the processing

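With 1 pool per genotype, mouse-to-mouse spread is unknown and none of the differences has a replicate check. No paired analysis was possible because each genotype is 1 pool and carries no replicate number. The summed ratios and the called members kept their direction under the settings run, but not all members with smaller ratios did (their log2 ratios then are in brackets). Over all cells Slc2a1 turned at an assignment probability of 0.99, Hk2 with the same mix, and Egln1 and Pfkfb4 (0.06) when thinned. Without interferon-high cells Hif1a (-0.03) turned with the gate at 3, Aldoa with the gate at 3 (-0.07) or 5, thinned or with equal weights, Slc16a3 (-0.24) in C1q-positive cells, Pfkl with the gate at 30, Egln1 thinned or with trimmed-mean scaling, Pfkfb4 (0.25) thinned and Gpi1 under 8 settings. Over all cells the log2 ratio of the summed members, 0.60, became 0.51 after thinning, 0.53 with trimmed-mean scaling, 0.64 with free RNA subtracted, 0.50 with each cell weighing the same, 0.56 with the same mix of gated states and 0.54 without Gapdh. It was 0.54 in C1q-positive cells outside the cell cycle and 0.49 without cells holding Nos2, both chosen after seeing the data. The number of members called higher stayed within 10 to 17. The number called lower, 0, was 1 with trimmed-mean scaling or free RNA subtracted, Pfkfb3 in both, and 2 with no minimum level.

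Without interferon-high cells the log2 ratio, 0.18, depended on the gate. It was 0.089 with the gate at 5 UMIs, 0.28 at 30, 0.24 at 15 per 10000 UMIs and 0.046 at 3, the last chosen after seeing the data. It was 0.15 thinned, 0.094 with trimmed-mean scaling, 0.16 with free RNA subtracted, 0.14 with each cell weighing the same, 0.21 with the same mix, 0.15 without Gapdh and 0.12 in C1q-positive cells. The 2 members called higher, Hk3 and Ndrg1, became 1 of them under the other gates, either changed cell filter, an assignment probability of 0.99 or the same mix. With equal weights neither was called, and 1 other, Slc16a3, was. The count was 0 with trimmed-mean scaling or a minimum of 100 UPM, and 5 with no minimum. The number called lower, 0, was 1 with the gate at 3. The causes were not tested.

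Interferon-high against other Tgfbr2-KO cells, all settings chosen after seeing the data, the log2 ratio of 0.97 was 0.90 with the gate at 3 or 5, 1.02 at 30, 1.03 at 15 per 10000 UMIs, 0.83 without Nos2 cells, 1.03 in C1q-positive cells, 1.06 thinned, 1.08 with equal weights and 0.77 with the same mix. Members under 100 UMIs are limited by depth.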

Other observations

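The 3 interferon-high cells of the control pool had a member sum of 2553 UPM (2050 to 3142), close to the 2533 UPM of the other control cells and below the 5607 UPM of interferon-high Tgfbr2-KO cells. Their Hif1a was at 172 UPM, and 3 cells give no basis for a comparison.

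Barcodes with no single hashtag entered no comparison. The members summed to 3183 UPM (3097 to 3271) in 96 multiplets, 2384 UPM (2252 to 2521) in 66 unassigned barcodes and 2644 UPM (2454 to 2846) in 54 blank ones. The multiplets lay between the 2 pools.

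States with under 50 cells in a pool are given as values. Without interferon-high cells the sum was 3935 UPM (3632 to 4256) in 17 control and 4462 UPM (4273 to 4657) in 43 Tgfbr2-KO cells of the low-C1q Ace-type state, named after a marker of nonclassical monocytes. In the Fn1-high state it was 3535 UPM in 139 control and 3812 UPM (3609 to 4023) in 22 Tgfbr2-KO cells. In cycling cells it was 2952 UPM in 40 control and 2978 UPM in 76 Tgfbr2-KO cells, with intervals of 2817 to 3092 and 2882 to 3076 that overlap. The low-C1q state left out for its depths had 51 control and 52 Tgfbr2-KO cells that are not interferon-high. Its sum was 3025 UPM (2822 to 3238) in control and 3602 UPM (3450 to 3759) in Tgfbr2-KO cells, 1.19-fold (1.10 to 1.29).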
